A study of Mus musculus with 56 samples.

Results

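The data describe 8 genes of glycogen synthesis and breakdown in mouse liver, chosen by name out of the 52230 genes to which sequencing reads were summed. They are 3 subunits that target protein phosphatase 1 to glycogen (Ppp1r3b, Ppp1r3c and Ppp1r3g), 3 genes of synthesis (Ugp2, Gys2 and Gbe1) and 2 of breakdown (Pygl and Phka2). Livers came from 56 male mice of the GCKR-P446L-EMI-B6N line, whose alleles of Gckr code for proline (P) or leucine (L) as residue 446 of GKRP, the regulatory protein of glucokinase, which holds that enzyme in the hepatocyte nucleus. For 20 weeks every mouse, controls included, was kept on the regimen named HFHSD (high in fat and sugar), with 45% of the energy of the pellets from fat, and with 10% glucose and 5% fructose in the drinking water. The 3 genotypes without further treatment were PP (n = 10), PL (n = 8) and LL (n = 10), and the same 3 genotypes with a glucokinase activator (GKA, 3 mg/kg) were PP (n = 10), PL (n = 8) and LL (n = 10). PP mouse 7 (without GKA) was left out of all comparisons, so that 9 PP mice without GKA remained. The study had removed it because a heatmap set its expression apart from the other mice.

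Glycogen is the hepatic store of glucose. UGP2 makes UDP-glucose, which glycogen synthase (GYS2 in liver) adds to the chains and the branching enzyme GBE1 arranges into a tree, while glycogen phosphorylase (PYGL in liver) releases glucose 1-phosphate again. Phosphorylase kinase, of which PHKA2 is the regulatory alpha subunit in liver, switches the phosphorylase on. Protein phosphatase 1 reverses this and switches the synthase on once a PPP1R3 subunit has brought it to the glycogen particle, and PPP1R3B is the best known of these subunits in liver.

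Reads per mouse were between 5.19 and 8.09 mega reads, with a median of 6.56. The 5 hepatocyte markers (Alb, Apoa1, Ttr, Tat and Cyp2e1) summed to between 67059 and 122828 normalised counts per mega reads (CPM), while the sums were at most 0.79 CPM for skeletal muscle markers, 4.31 CPM for adipose markers and 0.144 CPM for exocrine pancreas markers. LL GKA mouse 53 stood apart by its blood markers, with 2961 CPM against a median of 490 CPM over all mice. The highest blood sums in LL without GKA and in PL with GKA were 1657 and 1198 CPM. Mouse 53 also had the highest hepatocyte and adipose sums of all mice, and the lowest Ppp1r3b, Pygl and Ugp2 of its group. Its Ppp1r3b (67.2 CPM) was close to that of LL GKA mice 56 and 52 (67.4 and 67.6 CPM). A clock component, which is the first principal component of 16 clock genes in units of its SD, and is higher where Dbp is higher, moved with genotype. Its mean ± SD was -0.64 ± 0.64 for 9 PP mice, 0.49 ± 0.79 for 8 PL mice and 0.51 ± 0.82 for 10 LL mice. With GKA it was -0.86 ± 1.33 in PP, 0.56 ± 0.49 in PL and 0.09 ± 0.70 in LL. By permutation tests of LL or PL against PP, adjusted over 4 comparisons, p was 0.015 for both without GKA (exact), 0.0155 for PL with GKA (exact) and 0.0599 for LL with GKA. No time of harvest is given in the labels, and the part of this component in the differences by genotype was not tested beyond the fits with the component as a covariate that stand beside the results.

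Per length, the members spanned a wide range. In TPM, a share of transcripts scaled by their length, the medians over 56 mice were 252 for Ugp2, 144 for Pygl, 57.3 for Gys2, 26.9 for Gbe1, 17.6 for Ppp1r3b, 10.9 for Ppp1r3c, 2.74 for Phka2 and 0.325 for Ppp1r3g. The enzymes of synthesis and breakdown were thus above the targeting subunits, and the regulatory subunit Phka2 was below Ppp1r3b and Ppp1r3c. Neighbours in this order overlapped in range. Ugp2 was above Pygl in 44 of 56 mice, Gbe1 above Ppp1r3b in 43 and Ppp1r3b above Ppp1r3c in 44, while the other neighbours stood in this order in 53 to 56 mice. The order of Ugp2 and Pygl depended on the scale, since in CPM per kilobase of the longest transcript Pygl had the higher median, 168 against 156, and was above Ugp2 in 37 mice. Transcripts with an effective length below 200 bases, together with those not matched to a gene, took between 3.99% and 86.8% of the TPM of a mouse. Groups are therefore compared below in CPM and not in TPM. With those transcripts left out and TPM rescaled, the order of the medians stayed the same, but the distances between members changed. The ratio of the medians of Gys2 and Gbe1 went from 2.13 to 1.38, and that of Pygl and Gys2 from 2.52 to 3.27.

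To assess whether genotype altered the phosphatase subunit of liver, Ppp1r3b (chromosome 8, 35842874 to 35856680, GRCm39, plus strand) was compared by mouse. Without GKA, Ppp1r3b had 138 CPM in the lowest PP mouse, a median of 199 CPM and 308 CPM in the highest (n = 9). In PL it had 43.5, 86.8 and 174 CPM (lowest, median and highest, n = 8), and in LL 61.2, 111 and 151 CPM (n = 10). In 8 of 10 LL mice and 6 of 8 PL mice Ppp1r3b was below the lowest of the 9 PP mice, and no LL or PL mouse reached the PP median. The means were 207 ± 54.4 CPM in PP, while PL had 102 ± 46.4 CPM and LL 112 ± 27.9 CPM (SD). PP mouse 7 had 112 CPM, less than any of the other PP mice. LL mice 38, 40 and 41 (119, 117 and 135 CPM) lay between PP mouse 7 and the lowest of those 9.

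By LL genotype without GKA, Ppp1r3b fell by 0.88 on the log2 scale (SE 0.16, edgeR adjusted p 0.048), a fold of 0.545 with a 95% confidence interval of 0.431 to 0.69. It was the only member called, where called means a fold not between 0.7 and 1.3 with an adjusted p below 0.05 over all genes, a threshold that 0.0854% of the 10537 genes tested passed. DESeq2 called Ppp1r3b alone among the members (log2 fold change -0.88, adjusted p 0.00029), where it called 109 of 10537 genes. The edgeR call was lost with RLE normalisation (edgeR adjusted p 0.0511), without a filter on low counts (0.0595) and with an offset for transcript length (0.122). When each of the 19 mice was left out in turn, the log2 fold change was between -0.95 and -0.79 and Ppp1r3b stayed called without PP mouse 6, LL mouse 42, LL mouse 44 or LL mouse 38 (adjusted p 0.0143 to 0.0468), and without any of the other 15 mice the adjusted p was 0.0524 to 0.11. With the clock component as a covariate the log2 fold change was -0.59 (SE 0.18, edgeR adjusted p 0.149).

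**Figure D1:**
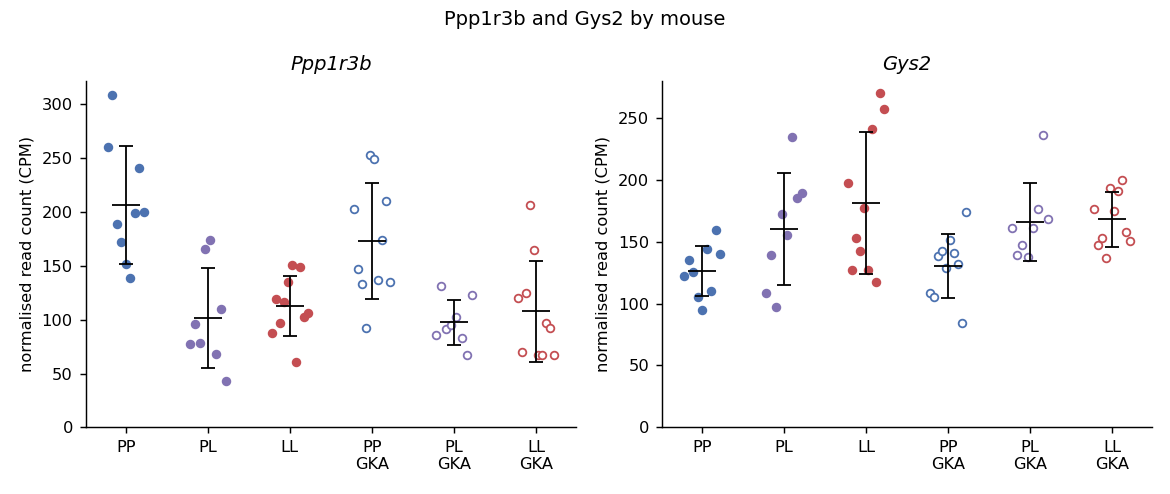
Normalised read counts (CPM, y axis from 0) of Ppp1r3b (left) and Gys2 (right) in the 6 groups (x axis), 1 point per mouse, filled without and open with GKA, with bars for the mean and SD (PP mouse 7 left out). Ppp1r3b was lower in most PL and LL mice than in any PP mouse without GKA (means 102, 112 and 207 CPM), and Gys2 was higher on average in PL and LL (160 and 181 CPM) than in PP (126 CPM) with overlap of the groups.

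PL mice also had less Ppp1r3b than PP mice. PL against PP gave a log2 fold change of -1.02 (SE 0.23, edgeR unadjusted p 0.00034, adjusted p 0.0778), so that no member was called where 0.151% of 10580 genes were. DESeq2, which called 0.671% of the genes, called Ppp1r3b alone among the members (log2 fold change -1.02, adjusted p 0.00388). At an unadjusted p below 0.05, which 10.1% of genes reached, 3 of the 7 members tested passed, namely Ppp1r3b, Gys2 and Phka2. Between LL and PL without GKA the log2 difference of Ppp1r3b was 0.14, with a 95% confidence interval of -0.34 to 0.61. No member was called in that comparison (0.00942% of genes called) by edgeR or DESeq2, and 0 of 8 members had an unadjusted p below 0.05, against 4.58% of all genes.

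With GKA, Ppp1r3b had 92.1, 160 and 253 CPM in PP (lowest, median and highest, n = 10), while PL had 67.6, 93.1 and 131 CPM (n = 8) and LL 67.2, 94.4 and 206 CPM (n = 10). The groups overlapped more than without GKA. In 4 of 10 LL mice and 4 of 8 PL mice it was below the lowest PP mouse, and in 9 of 10 PP mice it was above the highest PL mouse. Against PP its log2 fold change was -0.68 by LL genotype (SE 0.22, edgeR unadjusted p 0.00525, adjusted p 0.218) and -0.84 by PL genotype (SE 0.18, unadjusted p 0.000169, adjusted p 0.126). Without LL GKA mouse 53 the first was -0.63 (adjusted p 0.326). No member was called in either comparison, where 0.239% of genes (LL) and 0% of genes (PL) were. At an unadjusted p below 0.05, which 10.4% and 8.19% of genes reached, 2 of 7 and 2 of 8 members passed, Ppp1r3b and Gys2 in both. DESeq2 called no member by LL genotype, and Ppp1r3b by PL genotype (adjusted p 0.00397), where it called 0.295% of genes. Between LL and PL with GKA the log2 difference of Ppp1r3b was 0.14 (95% confidence interval -0.30 to 0.59). None of the 8 members was called or had an unadjusted p below 0.05 in that comparison, where 0% and 8.59% of genes did, and DESeq2 called none of them.

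All 6 groups were then fitted together, with genotype and GKA as terms. Ppp1r3b fell by 0.78 on the log2 scale by LL genotype (SE 0.15, edgeR adjusted p 0.000719) and by 0.93 by PL genotype (SE 0.16, edgeR adjusted p 0.000499). LL genotype called 2 of 8 members, Ppp1r3b as lower and Gys2 as higher, where 1.7% of 11474 genes were called, and PL genotype called Ppp1r3b alone, where 1.05% were. The call of Ppp1r3b by LL genotype held without any 1 of 39 PP and LL mice (log2 fold change -0.86 to -0.74, highest adjusted p 0.0017). With the clock component as a covariate the log2 fold change was -0.58 by LL genotype (SE 0.16, edgeR adjusted p 0.0482, still called) and -0.66 by PL genotype (SE 0.18, edgeR adjusted p 0.0864, not called). Between LL and PL no member was called by this fit. The difference of Ppp1r3b was 0.15 on the log2 scale (SE 0.15, 95% confidence interval -0.16 to 0.46), 0 of 8 members were called by edgeR or DESeq2 (0.34% of genes by edgeR), and 0 had an unadjusted p below 0.05 (8.82% of genes). The comparisons of PL over both treatments were added after the values had been seen, and those of LL and PL with PP share the PP mice.

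**Figure D2:**
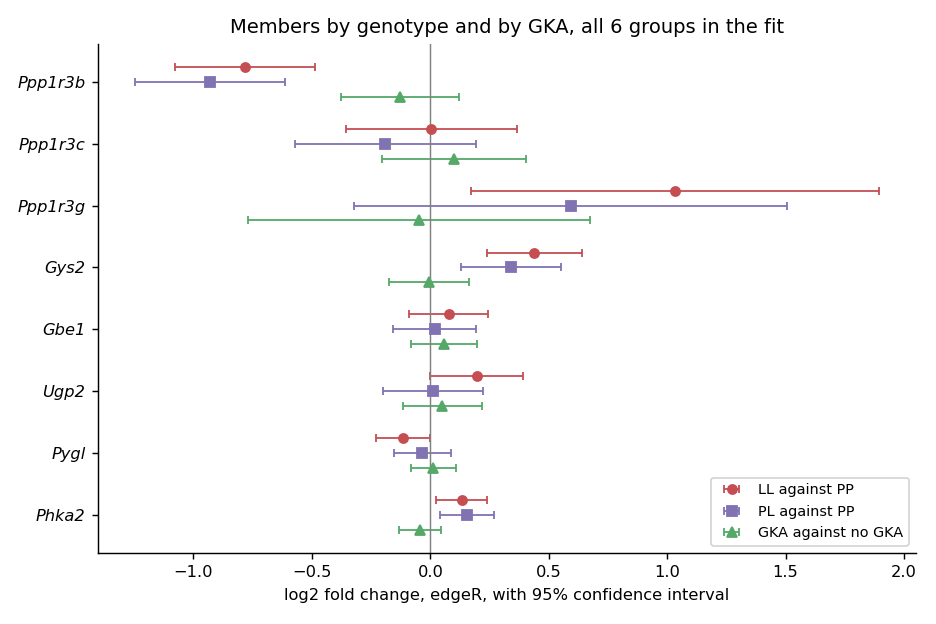
Log2 fold changes (x axis) of the 8 members (y axis) with 95% confidence intervals from the edgeR fit of all 6 groups, for LL against PP (circles), PL against PP (squares) and GKA against no GKA (triangles). Ppp1r3b lay below 0 by both genotypes (-0.78 and -0.93) and Gys2 above 0 (0.44 and 0.34), while every interval for GKA included 0.

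Ppp1r3c, which targets the phosphatase to glycogen in many tissues, did not follow Ppp1r3b by genotype (chromosome 19, 36708523 to 36714070, minus strand). Without GKA it had 26, 44.8 and 109 CPM in PP (lowest, median and highest), while PL had 27.6, 47.9 and 58.7 CPM and LL 21.9, 52.3 and 72.3 CPM. With GKA it had 24.7, 50 and 99 CPM in PP, while PL had 32.7, 49.7 and 69.5 CPM and LL 25, 49.5 and 116 CPM. All groups overlapped, and the spread was widest in LL with GKA, PP with GKA and PP. The log2 fold change over both treatments was 0.00 by LL genotype, with a 95% confidence interval of -0.36 to 0.36, and -0.19 by PL genotype (-0.57 to 0.19). With the clock component as a covariate it was 0.49 by LL genotype (SE 0.17, edgeR adjusted p 0.13).

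Ppp1r3g, a subunit known to respond to feeding in liver, was near the limit of detection (chromosome 13, 36142822 to 36154371, plus strand). It had between 0 and 55 reads per mouse and at most 7.12 CPM, and passed the filter on low counts in some comparisons only. Neither LL against PP without GKA nor LL against PP with GKA was among them. The lowest, median and highest values were 0.141, 0.432 and 3.08 CPM in PP, while PL had 0, 0.968 and 5.62 CPM and LL 0.371, 2.03 and 7.12 CPM. In 9 of 10 LL mice it was above the PP median and in 4 of 10 above the highest PP mouse. With GKA the medians of PP, PL and LL were 0.829, 1.5 and 1.17 CPM. Over both treatments LL against PP gave a log2 fold change of 1.03 (SE 0.43, edgeR unadjusted p 0.0195, adjusted p 0.195), which was not called.

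Among the genes of synthesis, Gys2 was higher in LL. Gys2, the liver glycogen synthase (chromosome 6, 142368339 to 142418841, minus strand), had 94.9, 126 and 159 CPM in PP (lowest, median and highest, n = 9), while PL had 97.1, 163 and 234 CPM (n = 8) and LL 117, 165 and 270 CPM (n = 10). In 9 of 10 LL mice it was above the PP median, and in 5 of 10 above the highest PP mouse. With GKA, Gys2 had 83.9, 135 and 174 CPM in PP, while PL had 138, 161 and 236 CPM and LL 137, 166 and 200 CPM. All 10 LL mice and all 8 PL mice with GKA were above the PP median, and 5 of 10 PP mice were below every LL and every PL mouse.

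For Gys2, LL against PP gave a log2 fold change of 0.52 without GKA (SE 0.16, edgeR unadjusted p 0.00386, adjusted p 0.165) and 0.37 with GKA (SE 0.11, unadjusted p 0.00262, adjusted p 0.167), neither of which was called. Over both treatments Gys2 rose by 0.44 (SE 0.10, edgeR adjusted p 0.00588), a fold of 1.36 with a 95% confidence interval of 1.18 to 1.56. The call held without any 1 of 39 PP and LL mice (0.40 to 0.47, highest adjusted p 0.0126). By PL genotype the log2 fold change over both treatments was 0.34 (SE 0.11, unadjusted p 0.00224, adjusted p 0.0807). With the clock component as a covariate Gys2 was no longer called, with 0.10 by LL genotype over both treatments (SE 0.07, edgeR adjusted p 0.553) and -0.03 without GKA. An offset for transcript length also ended the call (0.07, SE 0.27, edgeR adjusted p 0.973). Gys2-202, a transcript of 314 bases, held 2.97% of the Gys2 reads and 47.6% of its TPM. The average effective length of Gys2 transcripts, weighted by TPM, varied between 121 and 2072 bases in PP mice.

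Ugp2 and Gbe1 showed no call by genotype. Ugp2, which makes the sugar donor of the synthase (chromosome 11, 21270384 to 21321276, minus strand), had 355, 565 and 663 CPM in PP, while PL had 415, 517 and 739 CPM and LL 444, 616 and 783 CPM without GKA. With GKA it had 392, 574 and 803 CPM in PP, while PL had 355, 596 and 694 CPM and LL 381, 657 and 739 CPM. The groups overlapped in both settings. Over both treatments the log2 fold change was 0.20 by LL genotype (95% confidence interval -0.00 to 0.39, edgeR adjusted p 0.322) and 0.01 by PL genotype. Without LL GKA mouse 53, whose Ugp2 was the lowest of its group, it was 0.23 by LL genotype (edgeR unadjusted p 0.0216, adjusted p 0.221). Exons of Ugp2 overlap 950 bases of Vps54 and 299 bases of Gm12043 on the opposite strand, as do 51 bases of Ppp1r3b with Gm45469 and 147 bases of Phka2 with Gm15243. Whether the counting used strand is not given in the sources used here, and without strand, reads that lie wholly within the shared bases cannot be told apart.

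Gbe1, the branching enzyme (chromosome 16, 70110715 to 70366609, plus strand), had group means from 112 ± 26.1 CPM in PL to 123 ± 22.3 CPM in PL with GKA (SD, n = 8 each). It ranged from 74.3 to 160 CPM over the 55 mice. The log2 fold change over both treatments was 0.08 by LL genotype (95% confidence interval -0.09 to 0.24) and 0.02 by PL genotype (-0.16 to 0.19).

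No gene of breakdown was called. Pygl, the liver phosphorylase (chromosome 12, 70237585 to 70278262, minus strand), had 411, 549 and 626 CPM in PP, while PL had 455, 515 and 596 CPM and LL 449, 504 and 588 CPM (lowest, median and highest). With GKA it had 420, 548 and 691 CPM in PP, while PL had 472, 559 and 594 CPM and LL 397, 485 and 578 CPM. The LL mice lay within the range of the PP mice without GKA, and 8 of 10 were below the PP median with GKA. Over both treatments LL against PP gave -0.12 on the log2 scale (SE 0.06, edgeR unadjusted p 0.0465, adjusted p 0.303), and without LL GKA mouse 53 it was -0.10 (unadjusted p 0.0828).

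Phka2, the regulatory subunit of phosphorylase kinase (chromosome X, 159285131 to 159381876, plus strand), was low, with 48.7 to 139 reads per mouse in the 55 mice. It had 10.7, 12.9 and 14.7 CPM in PP, while PL had 12.1, 14.7 and 16.5 CPM and LL 11.5, 15.2 and 17.4 CPM. In 6 of 8 PL mice and 5 of 10 LL mice it was above the highest PP mouse. With GKA the medians were 12.8, 13.5 and 13.6 CPM in PP, PL and LL. The log2 fold change over both treatments was 0.13 by LL genotype (SE 0.05, edgeR unadjusted p 0.0171, adjusted p 0.181) and 0.16 by PL genotype (SE 0.06, unadjusted p 0.00813, adjusted p 0.153), neither of which was called. With the clock component as a covariate these were 0.07 and 0.08.

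**Figure D3:**
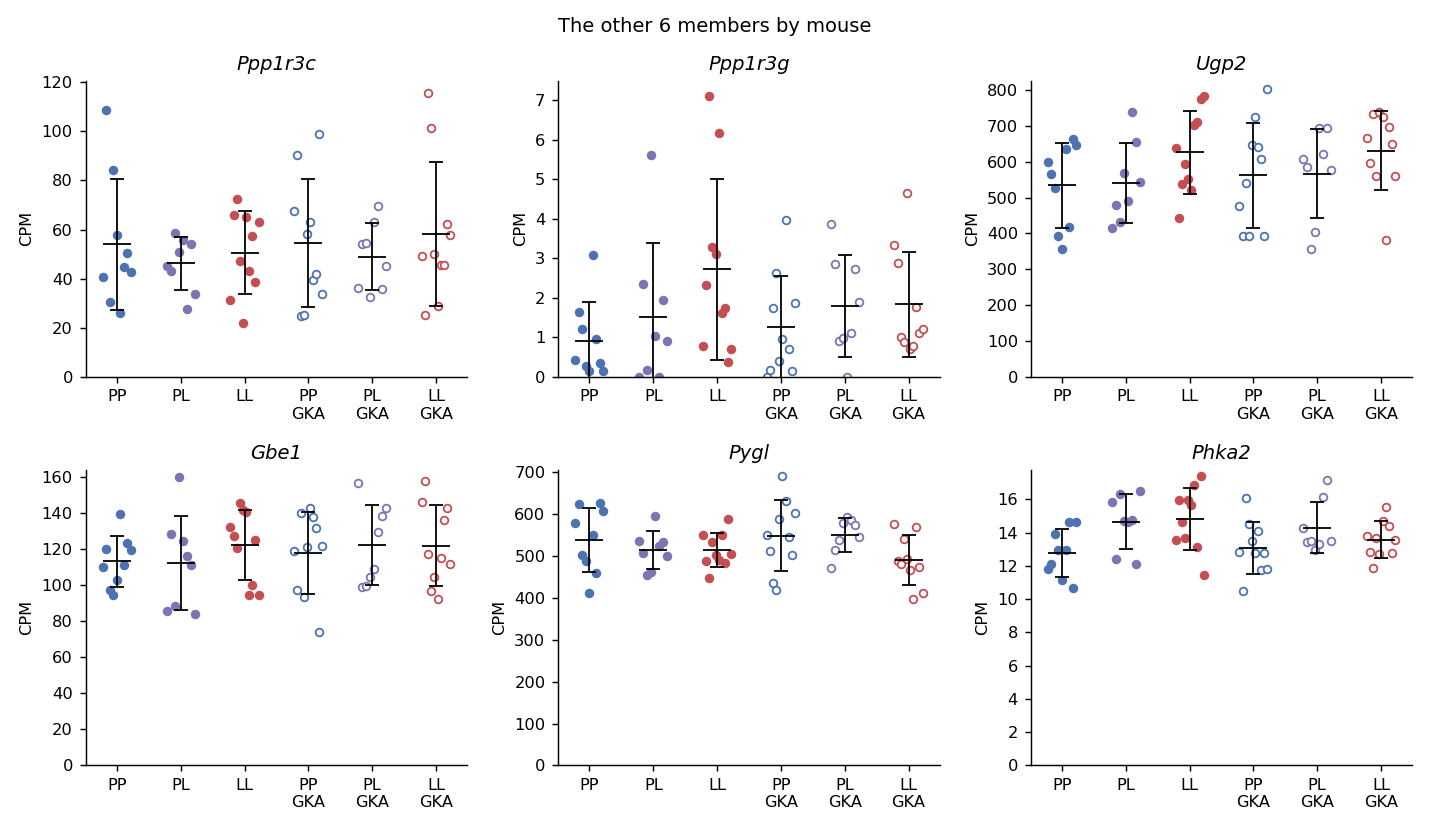
Normalised read counts (CPM, y axes from 0) of the other 6 members in the 6 groups (x axes), 1 point per mouse, filled without and open with GKA, with bars for the mean and SD (PP mouse 7 left out). The 6 groups overlap in each panel, and Ppp1r3g stays at or below 7.12 CPM.

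Seen as a list, the 8 members had a median log2 fold change by LL genotype over both treatments of 0.11 and a median absolute value of 0.16, against 0.00 and 0.09 over all 11474 genes. At an unadjusted p below 0.05, which 16.0% of all genes reached in either direction, 3 members were higher (Gys2, Ppp1r3g and Phka2) and 2 lower (Ppp1r3b and Pygl). The place of Ppp1r3g in this count rests on this fit alone, since the filter on low counts removed it from LL against PP without and with GKA. In whole liver, fewer cells of a type and less RNA per cell cannot be told apart.

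To assess whether the glucokinase activator altered these genes, mice with and without GKA were compared within each genotype. None of the members was called in PP, PL or LL, where 0% of genes were called in each. None had an unadjusted p below 0.05, against 3.56% of genes in PP, 3.18% in PL and 6.15% in LL, and DESeq2 called no member. Over all genotypes 0 of 8 members were called by edgeR or DESeq2 (0% of genes by edgeR) or had an unadjusted p below 0.05 (5.3% of genes). The log2 fold change of Ppp1r3b by GKA was -0.13 over all genotypes, with a 95% confidence interval of -0.38 to 0.12. It was -0.25 in PP (-0.63 to 0.12), -0.06 in PL (-0.55 to 0.43) and -0.06 in LL (-0.49 to 0.37). Gys2 had -0.01 (-0.18 to 0.16) over all genotypes, and Pygl 0.01 (-0.08 to 0.11). The intervals were widest for Ppp1r3g, with -0.05 (-0.77 to 0.67). Whether GKA acted differently in LL and PP mice was tested as an interaction, in which 0% of 11186 genes and no member passed, by edgeR or DESeq2, and 0 of 8 members reached an unadjusted p of 0.05 (5.75% of genes). The interaction term was 0.19 for Ppp1r3b (95% confidence interval -0.39 to 0.77) and -0.15 for Gys2 (-0.54 to 0.24).

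The members were then compared by transcript, to see whether the mixture of isoforms moved with LL genotype. Ppp1r3b-202, a coding transcript of 5765 bases, held 62.1% of the Ppp1r3b reads over all mice, and the next coding transcripts held 21.6% and 15.7%. The share of Ppp1r3b-202 was 59.3 ± 17.2% in PP (SD, n = 9) and 53.3 ± 29.6% in LL (n = 10), and single LL mice ranged from 0% to 92.4%. The long coding transcript of Gys2 (2663 bases) held 96.8 ± 1.05% of Gys2 reads in PP and 96.7 ± 1.96% in LL. Phka2-203 held 68.2 ± 29% of Phka2 reads in PP and 39.1 ± 42.1% in LL, from few reads. None of the 14 permutation tests of the main transcript, for 7 members with more than 1 transcript in LL against PP without and with GKA, passed (adjusted p 1). By unadjusted p the smallest was 0.112, for Phka2-203 without GKA (exact permutation test).

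Within groups, the members varied together in pairs. Of 28 pairs, 7 had an adjusted permutation p below 0.05 for the correlation of log2 CPM after removal of the group means (n = 55 mice). Among the enzymes, Gys2, Ugp2 and Pygl were correlated with each other across mice, and no pair of Gbe1 with these 3 passed. Gys2 and Ugp2 had a Pearson r of 0.65 (Spearman rho 0.69, adjusted permutation p 0.00014 for both), and r was 0.64 without the 2 mice farthest from the median of Gys2. Pygl and Ugp2 had an r of 0.58 (rho 0.58, adjusted permutation p 0.00014 for both), and 0.51 without the 2 farthest mice. Gys2 and Pygl had an r of 0.37 (rho 0.41, adjusted permutation p 0.0156 and 0.00938), and 0.32 without the 2 farthest mice. For the first 2 pairs the unadjusted p was 1e-05, the smallest that 100000 permutations can give. In the group where each of these 3 pairs was lowest, r was 0.04, 0.07 and 0.07, in the order named.

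The phosphatase subunits Ppp1r3b and Ppp1r3c had an r of 0.50 (rho 0.50, adjusted permutation p 0.00196 for both), with the same sign in 6 of 6 groups, although only Ppp1r3b was called by genotype. Without the 2 farthest mice it was 0.46. Ppp1r3g, low as it was, went with Gbe1 (r 0.49, rho 0.50, adjusted permutation p 0.00455 and 0.00196, 0.44 without the 2 farthest mice). Ppp1r3b and Pygl had an r of 0.36 (adjusted permutation p 0.0363) and a rho of 0.30 (adjusted permutation p 0.12), with 0.35 without the 2 farthest mice. The r of this pair had the same sign in only 4 of 6 groups, and ranged from -0.45 to 0.65 by group. With PP mouse 7 kept, the pair no longer passed (r 0.35, adjusted permutation p 0.052). Ppp1r3c and Gys2 were opposed, with an r of -0.41 (rho -0.45, adjusted permutation p 0.00778 and 0.00532) and -0.45 without the 2 farthest mice. Once the clock component had been removed as well, the r of this last pair was 0.13 (adjusted permutation p 0.48), while the other 6 pairs still had an adjusted p below 0.05. Ppp1r3b and Gys2, the 2 members called by LL genotype, had an r of -0.24 within groups (rho -0.24, adjusted permutation p 0.199 and 0.186, -0.18 without the 2 farthest mice).

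**Figure D4:**
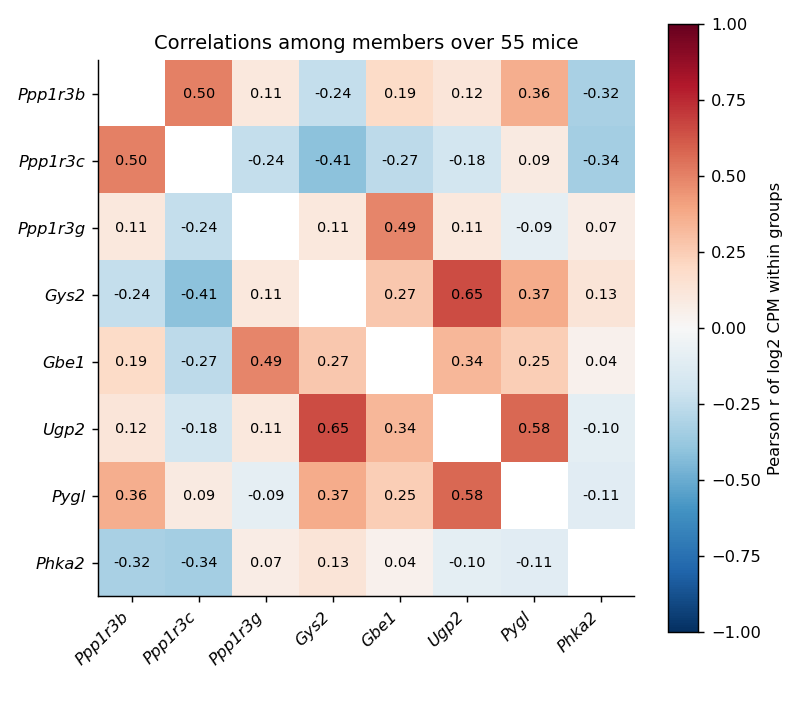
Pearson r of log2 CPM between each pair of the 8 members (both axes) after removal of group means, over 55 mice, with red for positive and blue for negative values. The highest value was 0.65 for Gys2 and Ugp2 and the lowest -0.41 for Ppp1r3c and Gys2.

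The relation of the members to the clock component within groups was examined next, after the values had been seen, with adjustment over the 8 members. Gys2 followed the component closely, with an r of 0.80 (rho 0.84, n = 55, adjusted permutation p 4e-05 and 8e-05), and 0.81 without the 2 mice farthest from the median of the component. Ugp2 had an r of 0.40 (rho 0.47, adjusted permutation p 0.0147 and 0.00256), and 0.39 without the 2 farthest mice. Of the phosphatase subunits, Ppp1r3c and Ppp1r3b had negative values. Ppp1r3c had an r of -0.60 (rho -0.57, adjusted permutation p 4e-05 and 0.00024), and -0.53 without the 2 farthest mice. Ppp1r3b had an r of -0.35 (rho -0.36, adjusted permutation p 0.0251 and 0.0234), and -0.33 without the 2 farthest mice. For Phka2, Gbe1, Ppp1r3g and Pygl the r was 0.31, 0.29, 0.26 and 0.05 (adjusted permutation p 0.0522 to 0.741). By rho, Phka2 passed (0.31, adjusted permutation p 0.0469).

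**Figure D5:**
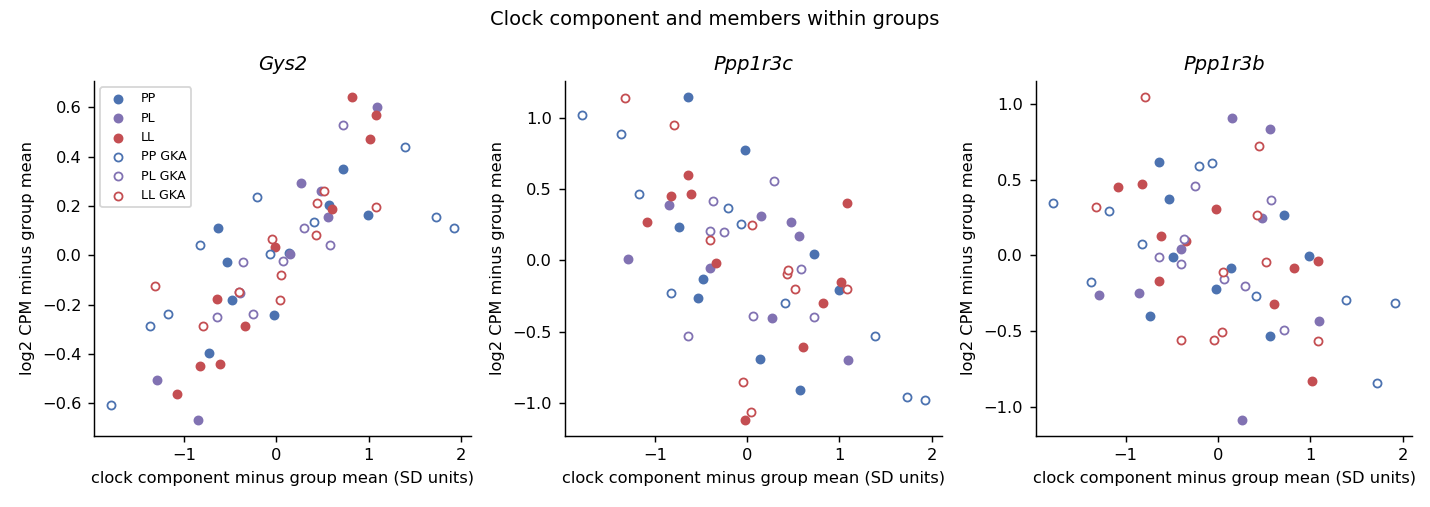
Clock component minus its group mean (x axis, SD units) against log2 CPM minus the group mean (y axis) for Gys2, Ppp1r3c and Ppp1r3b, 1 point per mouse (n = 55), coloured by genotype and open with GKA. Gys2 rises along the component (r 0.80), while Ppp1r3c (-0.60) and Ppp1r3b (-0.35) fall.

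The promoters of the members in RefSeq (GRCm38.p6) were searched for CACGTG, the E-box that the clock proteins CLOCK and BMAL1 bind, and for AGGTCA, the half-site of nuclear receptors, on both strands of the 250 bases before the start. Windows were found for 6 of the 8 members, and Ppp1r3b and Gys2 had none. Ppp1r3c held the E-box, from 104 to 99 bases before its start, as did 6.02% of 32851 windows. Pygl held the half-site, as did 14% of windows, and the other 4 members held neither. A match is a description of these letters and not a measured binding site. The stretch of the Ppp1r3c promoter from 250 to 71 bases before the start is shown for its E-box, in capitals, on the minus strand at chr19:36736675-36736854 of GRCm38.p6.
Ppp1r3c: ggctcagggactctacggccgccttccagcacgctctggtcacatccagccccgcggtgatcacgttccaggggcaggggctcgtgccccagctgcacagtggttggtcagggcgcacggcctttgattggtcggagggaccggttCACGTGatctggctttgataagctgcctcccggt

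The genes closest to 4 members in their variation between mice were named by Pearson r of log2 CPM within groups, out of 11516 genes (n = 55 mice, highest 3). For Gys2 they were Bri3 (0.84), Coq10b (0.80) and Cisd3 (0.78). For Ppp1r3b they were Gask1a (0.65), Slc25a44 (0.63) and Lactb2 (0.62), and for Ppp1r3c they were Slc30a10 (0.64), Ero1b (0.61) and Cldn1 (0.59). For Ppp1r3g they were Mknk2 (0.66), B4galt5 (0.63) and Lpin2 (0.62). Without the 2 mice farthest from the median of the member, r was between 0.54 and 0.82 for these genes.

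None of the other glycogen genes that were tested was called. Of 24 other glycogen genes, which hold the muscle and brain isoforms, debranching and lysosomal enzymes, glycogenin, the other subunits of phosphorylase kinase and phosphatase 1 and glycogen synthase kinase, 17 were tested for LL against PP over both treatments and none was called. At an unadjusted p below 0.05, 2 were higher and 3 lower, where 16.0% of all genes passed in either direction and 1.7% were called. The median log2 fold change of the 17 was 0.03. The smallest p was that of Gsk3b, a kinase that switches the synthase off. Without GKA its mean was 19.9 ± 3.46 CPM for PP mice (n = 9) against 16 ± 3.18 CPM for LL mice (n = 10, SD). With GKA the PP mean of Gsk3b was 18.7 ± 2.98 CPM against an LL mean of 16.2 ± 2.48 CPM (n = 10 each). Its log2 fold change over both treatments was -0.26 (SE 0.08, edgeR adjusted p 0.0469), which was less than the fold threshold. Next over both treatments were Ppp1ca, a catalytic subunit of phosphatase 1, with -0.12 (edgeR adjusted p 0.164), and Ppp1r3e, a further targeting subunit, with 0.43 (edgeR adjusted p 0.19). The level of Ppp1r3e was low. Without GKA its mean rose from 1.24 ± 0.384 CPM for PP mice to 1.95 ± 0.533 CPM for LL mice. With GKA the PP mean of Ppp1r3e was 1.34 ± 0.715 CPM against an LL mean of 1.6 ± 0.481 CPM. The log2 fold change with GKA was 0.22 (edgeR unadjusted p 0.455). Without GKA the smallest p values were those of Ppp1r3e (log2 fold change 0.66), the phosphoglucomutase Pgm1 (0.16) and Gsk3b (-0.31), and with GKA those of Ppp1ca (-0.18), Phkb (-0.20), the beta subunit of phosphorylase kinase, and Gsk3b (-0.20), with edgeR adjusted p between 0.182 and 0.526.

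Among the genes that supply and remove glucose 6-phosphate, G6pc1 was higher in LL. G6pc1, glucose 6-phosphatase, rose by 0.99 on the log2 scale for LL against PP over both treatments (SE 0.20, edgeR adjusted p 0.00135), with 214 ± 103 CPM in PP and 403 ± 118 CPM in LL without GKA (SD). The PL mean without GKA was 150 ± 46.7 CPM, below that of PP. By edgeR, G6pc1 was not called for LL against PP without GKA (0.92, adjusted p 0.112) or with GKA (1.08, adjusted p 0.13). DESeq2 called it without GKA (adjusted p 0.0151). G6pc1 was also called for LL against PL without GKA (1.42, edgeR adjusted p 0.00822) and over both treatments (1.22, edgeR adjusted p 0.0013), comparisons in which Ppp1r3b and Gys2 were not called. The call of G6pc1 for LL against PL without GKA was lost with all 6 groups in 1 fit (1.43, edgeR adjusted p 0.107). Slc2a2, the hepatic glucose transporter, had 0.30 for LL against PP over both treatments (SE 0.06, edgeR adjusted p 0.000921), which was less than the fold threshold. G6pc1 stayed called for LL against PP over both treatments with the clock component as a covariate (1.36).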

How the data were processed

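Liver RNA of 56 mice was sequenced. The authors estimated transcript abundance with Salmon 1.4.0 against GENCODE M26 (GRCm39), and the deposited values are estimated counts (reads) and TPM per transcript. Here the estimated counts were summed per gene by GENCODE identifiers (98.8% of 139225 transcripts matched), rounded to whole numbers and tested with edgeR 4.0.16 (quasi-likelihood test, TMM normalisation, filter on low counts, Benjamini-Hochberg adjustment over all genes tested). Genes were called at an adjusted p below 0.05 and a fold of at least 1.3 or at most 0.7. TPM served for levels between genes only. Each comparison without or with GKA was fitted on its own mice. Alternatives were DESeq2 1.42.0, RLE normalisation, no filter, all 6 groups in 1 fit, PP mouse 7 kept, a length offset, the clock component as a covariate and each mouse left out. The fits of PL over both treatments, the correlations of the members with the clock component and the rescaled TPM were added after the data had been seen. The edgeR script was tested on simulated data. Correlations and shares were tested by exact permutation or 100000 permutations (SciPy 1.17.1). The members and lists were chosen with earlier results of these data known, the members by name. Of the other glycogen and supply genes, those named were the 3 with the smallest p in each LL against PP comparison and any called. A result of the supply genes is not reported here. Mice within a group were separate libraries, which differed beyond counting error in all 236 pairs. The strand of counting and sequencing batches are not given in the sources used here.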

Additional observations from a re-analysis of the deposited data

Results flagged for a closer look

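Of 48 sets of values (8 genes in 6 groups), 3 held a mouse far from the rest of its group, where chance gives about 1 in 20. Ppp1r3g in PL mouse 24 was 5.62 CPM, with the next mouse at 2.34 CPM. Gys2 in PL GKA mouse 35 was 236 CPM, with the next at 177 CPM. Ugp2 in LL GKA mouse 53 was 381 CPM, with the next at 560 CPM, in the mouse with the highest blood markers (2961 CPM). The cause was not tested.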

How the results depend on the processing

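Of 663 member fold changes under other settings, 636 kept their side of the threshold (55 of them changed sign with neither p below 0.05), 7 were weaker, 3 stronger and 17 reversed. Of 585 with a mouse left out, 570 kept it and 15 were weaker. The cause of these changes was not tested. No paired analysis was possible because mouse numbers are not shared between groups.

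Without GKA, the genes called for LL against PP (9) became 109 with DESeq2, 0 with RLE normalisation, 1 without a filter, 0 with the clock component, 2 with the length offset, 65 with all 6 groups in 1 fit and 26 with PP mouse 7 kept. The members called (1) became 0 with RLE normalisation, no filter, the clock component and the length offset, with Ppp1r3b at adjusted p 0.0511, 0.0595, 0.149 and 0.122 (edgeR). For PL against PP (16 genes) the counts were 71 with DESeq2, 10 with the clock component, 0 with the length offset and 33 with PP mouse 7, and members called became 1 with DESeq2 and with all 6 groups. For LL against PL (1 gene) they were 24 with DESeq2, 9 with the clock component and 0 with all 6 groups.

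With GKA, LL against PP (25 genes) had 92 with DESeq2, 10 with the clock component, 0 with the length offset and 45 with all 6 groups. PL against PP (0 genes) had 31 with DESeq2, which called 1 member, and 21 with all 6 groups. LL against PL (0 genes) had 37 with DESeq2, 2 with the length offset and 21 with all 6 groups. GKA (0 genes in each) had 1 in PP with all 6 groups, 1 in PL with DESeq2, 6 in LL with DESeq2 and 1 with the length offset, and over all genotypes 1 with DESeq2 and 4 without a filter. The interaction (0 genes) had 1 with DESeq2.

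Over both treatments, LL against PP (195 genes, 2 members) had 84 genes and 1 member with the clock component and 28 genes and 1 member with the length offset. PL against PP (120 genes, 1 member) had 27 genes and 0 members with the clock component and 13 genes with the length offset, and LL against PL (39 genes) had 20 with the length offset.

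Log2 fold changes that changed sign with the clock component were those of Gys2 for LL against PP (-0.033) and PL against PP (-0.14) without GKA and PL against PP over both treatments (-0.067), of Ugp2 for PL against PP without GKA (-0.36), and of Ppp1r3c for PL against PP with GKA (0.65) and over both treatments (0.43). With the length offset they were those of Gys2 for LL against PP (-0.43) and PL against PP (-0.89) without GKA, PL against PP over both treatments (-0.32) and GKA in PP (-1.02), of Pygl for GKA in PP (-0.89) and the interaction (1.28), and of Phka2 for LL against PP (-0.24) and PL against PP (-0.32) without GKA, LL against PP over both treatments (-0.026), PL against PP over both treatments (-0.00058) and GKA in PP (-0.82). The r of Ppp1r3c and Gys2 was 0.13 with the clock component removed. CPM per kilobase moved 2 ranks of the level order.

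With each mouse left out, the genes called for LL against PP were 0 to 85 without GKA, 12 to 47 with GKA and 158 to 248 over both treatments, and the members called without GKA 0 to 1. Depth limits Ppp1r3g (0 to 55 reads per mouse) and Phka2 most.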
